A study of Mus musculus with 6 samples.

Results

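Cpt1b and 8 further genes of mitochondrial fatty acid oxidation were followed in mouse embryonic stem cells without Hoxd12 and in wild-type cells. The 9 genes are the carnitine palmitoyltransferase genes Cpt1a, Cpt1b, Cpt1c and Cpt2, the acyl-CoA dehydrogenase genes Acadm, Acadl and Acadvl, and the trifunctional protein genes Hadha and Hadhb. All 9 were found among the 55450 gene identifiers of the files, and all 9 passed the count filter that left 12891 genes for testing. Cpt1b was selected on its measured difference between these same libraries, and its values are therefore described without a test. The other 8 were listed for their place in the pathway, with earlier results of these data known, and were tested in a fit of all genes. The question was whether the difference in Cpt1b extended to the other isoforms and to the rest of the pathway.

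Long-chain fatty acids enter mitochondria as carnitine esters. Carnitine palmitoyltransferase 1 on the outer membrane makes the ester and is the step that malonyl-CoA inhibits, and carnitine palmitoyltransferase 2 on the inner membrane returns the acyl group to coenzyme A. Acyl-CoA dehydrogenases of different chain-length preference then start each round of beta-oxidation, and the trifunctional protein carries out the remaining steps for long chains. Cpt1a is the isoform known from liver and many other tissues, Cpt1b that of muscle and brown fat, and Cpt1c a brain form of low catalytic activity.

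Embryonic stem cells are pluripotent cells derived from the blastocyst. By the labels, the cells of both groups came from C57BL6 embryos and grew in mES medium supplemented with 2i (inhibitors of the MEK and GSK3 kinases), and they differed in genotype, Hoxd12-/- or wild type. Each group had 3 stranded mRNA libraries, which the labels do not tie to separate cultures or clones, so that p-values cover the spread among libraries alone, and that spread may be technical. The libraries held 5412577 to 6280934 expected counts, and 3 counts of a gene marked a floor of 0.478 to 0.554 CPM, counts after scaling by library size, for counting error only.

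Hoxd12, the targeted homeobox gene, had 0 counts in all 6 libraries, so its loss was below detection in this sequencing, and it provides no check of the genotype labels. All 10 markers of pluripotent stem cells passed the count filter, and their summed level was 12474 to 12740 TPM (transcript abundance scaled by length and library size) in the knockout and 11215 to 11768 TPM in wild type, most of it from Dppa5a. Of the 10, Zfp42 rose (log2 fold change 0.29, edgeR adjusted p = 1.43e-05) and Nanog fell (-0.39, adjusted p = 0.00167). Knockout replicate 2 stood apart from the other libraries. It had 2.84% of its counts in 5 loci (CT010467.1, AY036118, Lars2, Gm26917 and Gm42418) that took 0.311% to 0.368% elsewhere. The 2 pairs of knockout libraries that include it differed by a chi-square of 12.1 and 13.7 per gene, against 1.98 to 2.51 in the other replicate pairs. This chi-square is a mean over genes that did not leave out the 5 loci, so it is not a sign separate from their excess.

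Cpt1b (ENSMUSG00000078937; chromosome 15, 89416405 to 89425863, minus strand, GRCm38) was higher in every knockout library than in any wild-type library. It had 131, 94 and 157 expected counts in knockout replicates 1, 2 and 3, and 56, 61 and 35 in wild-type replicates 1, 2 and 3. As normalised counts, the knockout libraries stood at 21.0, 17.8 and 24.2 CPM and the wild-type libraries at 9.78, 9.93 and 6.02 CPM. The lowest knockout library, replicate 2, thus lay well above the highest wild-type library.

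The mean of Cpt1b was 21.0 ± 3.20 CPM in knockout cells and 8.58 ± 2.22 CPM in wild type (SD, n = 3). That is a 2.45-fold difference, or 1.29 on the log2 scale (SE 0.16). Over 15 alternative settings of scaling, tool, filter, unit and libraries, the log2 difference of Cpt1b stayed between 1.08 and 1.42. It was 1.39 without knockout replicate 2, the library that stood apart. In bulk RNA, more cells that express a gene and more RNA per cell cannot be told apart.

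Per length, Cpt1b stood at 7.23, 5.68 and 8.66 TPM in knockout cells and 3.13, 3.09 and 2.34 TPM in wild type. The annotation (GENCODE M21) gives the gene 4 transcripts. The deposited gene length was 2895 bases in 5 libraries, the length of Cpt1b-201, a coding transcript, and 2318 bases in wild-type replicate 3. Cpt1b is fully overlapped on its own strand by Gm44502, a read-through gene model that also spans the neighbour Chkb, and that model had 0 counts in all 6 libraries.

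Markers of the tissues best known for Cpt1b were not higher in the knockout. The 10 muscle markers summed to 34.0 to 41.3 TPM in the knockout libraries and 54.3 to 55.6 TPM in the wild-type libraries, and most of this came from Tnni3 and Myl7, with Ckm, Tnnt2, Actc1 and Myog at no more than 4 counts in any library. Of the 4 muscle markers tested edgeR called 0 higher and 1 lower, Myl7 (log2 fold change -0.89, edgeR adjusted p = 3.51e-05). Over all 12891 tested genes edgeR called 12.1% higher and 14.4% lower. Ryr2 (0.31), Myh6 (-0.19) and Tnni3 (-0.33) were not called (edgeR adjusted p = 0.133 to 0.795). The 6 brown fat markers summed to 7.49 to 10.1 TPM in knockout cells and 10.4 to 16.7 TPM in wild type. Most of this came from Cidea, the 1 marker of the list that was tested, which fell (log2 fold change -0.72, edgeR adjusted p = 0.00237). Adipoq, Fabp4 and Lep had 0 counts throughout, and Ucp1 had no more than 2. The part of the muscle and brown fat markers in the difference of Cpt1b was not tested.

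**Figure D1:**
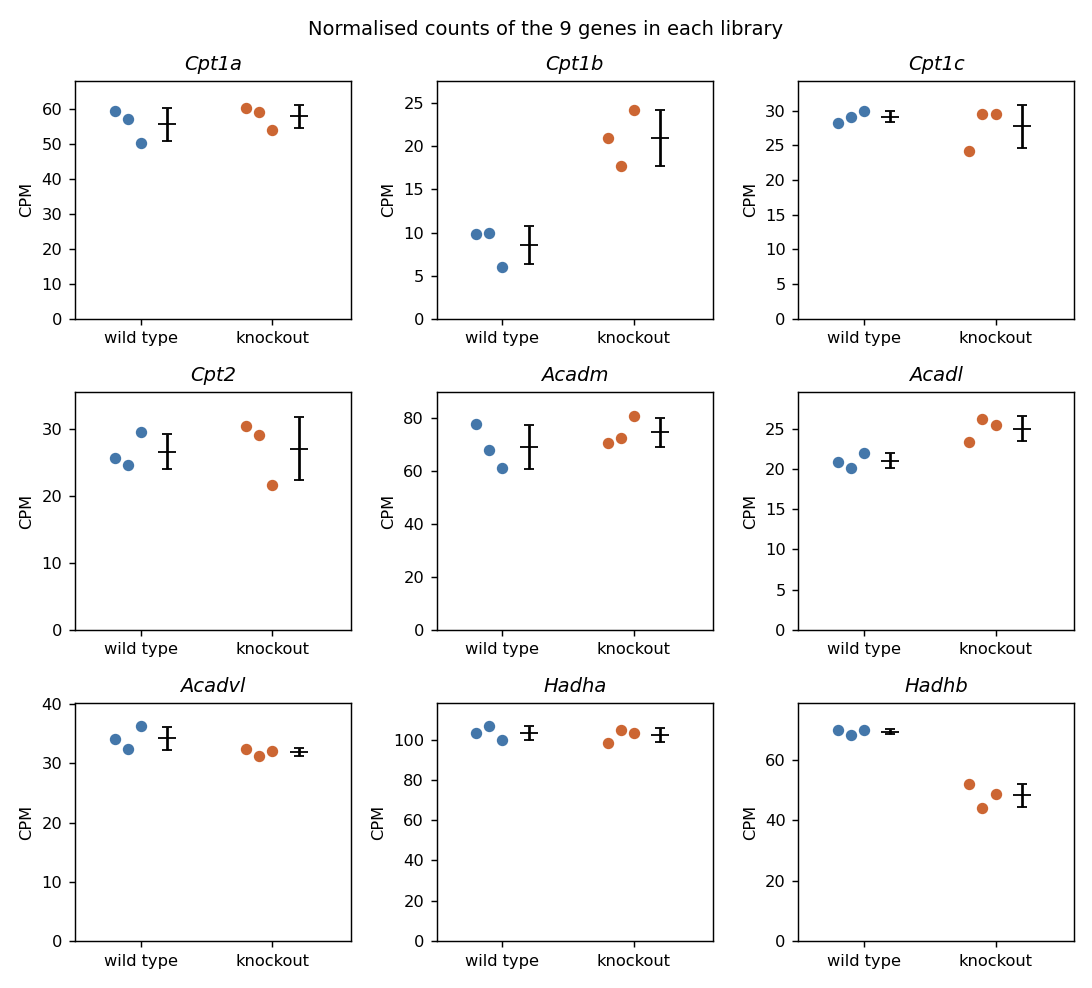
Normalised counts (CPM, vertical axis from 0) of the 9 genes in each library, wild type in blue and knockout in orange, with the group mean and SD (n = 3) as black bars. The groups are apart for Cpt1b and Acadl, where the knockout is higher, and for Hadhb, where it is lower, and they overlap for the other 6 genes.

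The other CPT1 isoforms did not pass the test. Cpt1a (chromosome 19, 3322334 to 3385733), which encodes the broadly expressed isoform, stood at 60.3, 59.2 and 54.0 CPM in knockout cells and 59.4, 57.0 and 50.2 CPM in wild type. Its log2 fold change was 0.06 (SE 0.08, 95% interval -0.10 to 0.22, edgeR quasi-likelihood test with Benjamini-Hochberg adjusted p = 0.636). Cpt1c (chromosome 7, 44959372 to 44974851), the brain form, stood at 24.2, 29.5 and 29.6 CPM in knockout cells and 28.3, 29.2 and 29.9 CPM in wild type. Its log2 fold change was -0.07 (SE 0.11, 95% interval -0.29 to 0.14, edgeR adjusted p = 0.666).

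For both isoforms the libraries of the 2 groups overlapped in CPM. The upper bounds of the intervals, 0.22 for Cpt1a and 0.14 for Cpt1c on the log2 scale, lie far below the 1.29 of Cpt1b. In TPM the groups of Cpt1a also overlapped, but every knockout library of Cpt1c was above every wild-type library. The sign of Cpt1c depended on the scale: its log2 difference was 0.08 with a transcript length offset and 0.18 on log2(TPM + 1), where the median of all tested genes was also moved, to 0.10. Cpt2 (chromosome 4, 107903981 to 107923610) encodes the inner-membrane enzyme. Its level was 27.1 ± 4.70 CPM in knockout cells and 26.6 ± 2.61 CPM in wild type (SD, n = 3). Its log2 fold change was 0.02 (95% interval -0.22 to 0.26, edgeR adjusted p = 0.920).

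Cpt1b remained the lowest of the 3 CPT1 genes per length in every library, but its share of their transcripts differed. Of the summed TPM of Cpt1a, Cpt1b and Cpt1c, Cpt1b made up 21.0%, 18.9% and 26.2% in knockout replicates 1, 2 and 3 and 11.7%, 12.0% and 9.64% in those of wild type. The mean share of Cpt1b was 22.0 ± 3.79% in the knockout and 11.1 ± 1.28% in wild type (SD, n = 3). Cpt1a held 42.4 ± 2.77% and 49.3 ± 2.06%, and Cpt1c 35.6 ± 1.02% and 39.6 ± 3.27%, in the same order.

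The CPT1 sum was 34.4, 30.1 and 33.0 TPM in knockout cells and 26.8, 25.8 and 24.3 TPM in wild type, so the groups did not overlap. These sums and shares contain Cpt1b and are therefore also described without a test. Set against Cpt2, the CPT1 sum was 2.02 ± 0.611 times as high in the knockout and 1.62 ± 0.215 times in wild type (SD, n = 3). Here the groups overlapped, and Cpt2 itself ranged from 12.1 to 19.8 TPM among the knockout libraries.

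**Figure D2:**
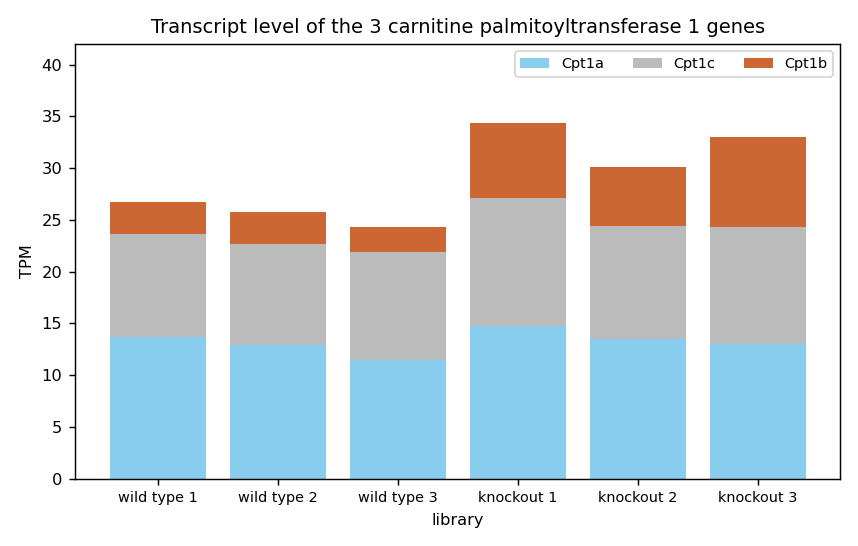
Stacked transcript levels (TPM, vertical axis from 0) of Cpt1a, Cpt1c and Cpt1b in each of the 6 libraries. The Cpt1b segment at the top is 5.68 to 8.66 TPM in knockout cells and 2.34 to 3.13 TPM in wild type, and the Cpt1a segment is the largest in all 6.

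Of the 8 members apart from Cpt1b, edgeR called 0 higher and 1 lower, Hadhb. Over all 12891 tested genes it called 26.5%, of which 12.1% of all tested genes were higher and 14.4% lower, so that 1 of 8 members was not more than the share among all genes. At an unadjusted edgeR p below 0.05 there were 2 of the 8, Acadl and Hadhb. The share of all tested genes at that limit was not computed. It is at least the 26.5% called after adjustment, here and for the pathway lists below. DESeq2, which called 5.44% of genes higher, 9.98% lower and 15.4% in all, called 0 members higher and 1 lower, again Hadhb. Limma on log2(TPM + 1), which called 8.59% higher, 5.81% lower and 14.4% in all, called 1 higher, Acadl, and 0 lower. The median log2 fold change of the 8 members was 0.002, beside 0.02 over all tested genes.

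In CPM the groups did not overlap for 1 member that was higher, Acadl, and 1 that was lower, Hadhb. Among all tested genes the groups did not overlap in CPM for 39.7%, 19.6% with the knockout higher and 20% with it lower. The members set apart changed with the unit. In TPM, Acadl and Cpt1c were higher without overlap and Acadvl was lower without overlap, while the groups of Hadhb overlapped. The share of all genes without overlap in TPM was not computed.

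The acyl-CoA dehydrogenases act on straight-chain acyl-CoA of medium (Acadm), long (Acadl) and very long chain (Acadvl). Acadl (chromosome 1, 66830839 to 66863277) stood at 23.4, 26.3 and 25.6 CPM in knockout cells and 21.0, 20.2 and 22.0 CPM in wild type. Every knockout library was above every wild-type library, by a narrow margin. The log2 fold change of Acadl was 0.25 (SE 0.11, 95% interval 0.02 to 0.48), and it did not pass over all genes with edgeR (adjusted p = 0.0971). On log2(TPM + 1) limma gave 0.36 and called it (adjusted p = 0.0446, spanning 0.0446 to 0.325 over its settings). An annotated processed pseudogene, Gm15793, lies within Acadl on the same strand and had 42.9 to 54.6 counts in each library, beside 120 to 166 for Acadl, so the split of reads between them is uncertain.

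Acadm (chromosome 3, 153922357 to 153944632) had 74.4 ± 5.32 CPM in knockout cells and 68.9 ± 8.32 CPM in wild type (SD, n = 3), and its log2 fold change of 0.11 did not pass (95% interval -0.04 to 0.27, edgeR adjusted p = 0.294). Acadvl (chromosome 11, 70010183 to 70015411) had 32.0 ± 0.675 and 34.2 ± 1.93 CPM, and its log2 fold change of -0.10 did not pass either (95% interval -0.29 to 0.09, edgeR adjusted p = 0.486). With an offset for transcript length, Acadvl was called lower (-0.38, edgeR adjusted p = 0.0351, spanning 0.0351 to 0.772 over its settings). Acadvl lies on a chromosome whose genes had a median log2 fold change of -0.12, and 26 of the 85 genes tested within 1 Mb of it were called lower. It also overlaps 2119 bases of Dvl2 on the other strand, with 508 to 663 counts, and the sources used here do not say whether the counting separated the strands.

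Hadha and Hadhb encode the alpha and beta subunits of the trifunctional protein and lie head to head on chromosome 5. Hadha (30118304 to 30155162, minus strand) carries the hydratase and 3-hydroxyacyl-CoA dehydrogenase activities, and Hadhb (30155248 to 30184593, plus strand) the thiolase. The 85 bases that separate the genes are shown because the GENCODE M21 starts of both lie on their flanks, in opposite directions. Transcription starts were not measured. They are given on the plus strand, 5′ to 3′, in capitals throughout (chr5:30155163-30155247, RefSeq window, GRCm38.p6).
Hadha to Hadhb: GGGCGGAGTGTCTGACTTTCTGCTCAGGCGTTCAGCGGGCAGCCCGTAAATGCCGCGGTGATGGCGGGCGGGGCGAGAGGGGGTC
Of these bases 69.4% were G or C, with 9 CG dinucleotides.

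Hadhb stood at 52.0, 44.2 and 48.6 CPM in knockout cells and 69.9, 68.4 and 70.1 CPM in wild type. The knockout libraries were all lower, and the wild-type libraries lay within a narrow range. Hadhb fell by 0.52 on the log2 scale, or by 30.3% (SE 0.07, 95% interval -0.67 to -0.37, edgeR adjusted p = 1.73e-06).

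Its partner Hadha stood at 98.1, 105 and 103 CPM in knockout cells and 103, 107 and 99.7 CPM in wild type, and its libraries overlapped. The log2 fold change of Hadha was -0.02 (SE 0.06, 95% interval -0.13 to 0.10, edgeR adjusted p = 0.861). The ratio of Hadha to Hadhb expected counts was accordingly 1.89, 2.36 and 2.13 in the knockout and 1.48, 1.56 and 1.42 in wild type, without overlap.

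The fall of Hadhb depended on the unit. Its deposited gene length, which varies from library to library, was 1860, 1559 and 1799 bases in the knockout and 2077, 1923 and 2551 bases in wild type. The lengths did not overlap, and the knockout had the shorter ones. The gene has 9 annotated transcripts, among them 3 coding ones of 2033 to 2048 bases, several shorter forms and Hadhb-206, a retained-intron form of 4388 bases. The length of 2551 bases in wild-type replicate 3 exceeds every coding transcript.

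Divided by length, Hadhb stood at 28.7, 27.5 and 28.9 TPM in knockout cells and 31.8, 32.9 and 24.7 TPM in wild type, and the groups overlapped. The call of Hadhb was lost with the transcript length offset (log2 fold change -0.17, edgeR adjusted p = 0.262) and on log2(TPM + 1) (-0.06, limma adjusted p = 0.765), where the median of all tested genes was 0.10. Over its settings the adjusted p ran from 2.76e-10 to 0.765. The call held without each of the 6 libraries in turn. The ratio of Hadha to Hadhb in TPM was 1.53 ± 0.360 in the knockout and 1.50 ± 0.246 in wild type (SD, n = 3). Hadha also varied in deposited length, between 2003 and 2904 bases among the knockout libraries, where its level ran from 33.7 to 54.7 TPM.

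**Figure D3:**
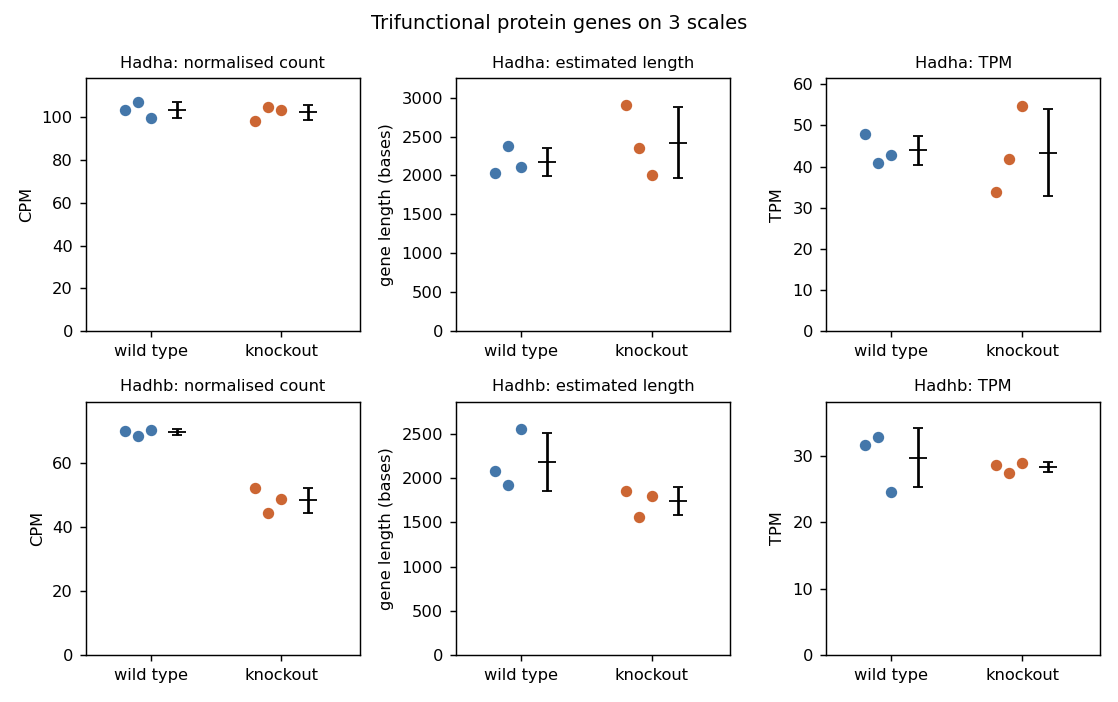
Hadha (top) and Hadhb (bottom) in each library as normalised count (CPM), deposited gene length (bases) and TPM, wild type in blue and knockout in orange, with the group mean and SD (n = 3) as black bars and axes from 0. Hadhb is lower in the knockout as a count and in length, and its groups overlap in TPM.

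Per length, the 9 genes had the same order of means in both groups. In wild type Hadha was highest at 43.9 TPM, followed by Acadm at 33.7, Hadhb at 29.8, Acadvl at 26.5, Cpt2 at 15.9, Cpt1a at 12.7, Acadl at 10.2, Cpt1c at 10.1 and Cpt1b at 2.85 TPM. Acadm and Hadhb, Hadhb and Acadvl, and Acadl and Cpt1c were neighbours whose libraries overlapped. In the knockout they ran from Hadha at 43.4 TPM to Cpt1b at 7.19 TPM, with overlap between Hadha and Acadm, Cpt2 and Cpt1a, and Cpt1a and Acadl. Cpt1b was thus the lowest of the 9 in both groups, and in the knockout it stood below Cpt1c at 11.6 TPM.

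Of 75 other genes of the pathway, 74 were found in the annotation, 65 were tested, and edgeR called 10 higher and 5 lower, 23.1% of those tested beside 26.5% of all genes. Their median log2 fold change was 0.07, beside 0.02 over all tested genes. With DESeq2, 5 were higher and 3 lower, and with limma on log2(TPM + 1) 9 were higher and 2 lower. With 1 library left out, the numbers were 6 to 10 higher (6 without knockout replicate 1) and 3 to 6 lower (3 without knockout replicate 3 and 3 without wild-type replicate 2). In CPM the groups did not overlap for 33 of the 65, 20 higher and 13 lower, beside 39.7% of all tested genes, 19.6% higher and 20% lower. The counts by role that follow stand beside the same 12.1% of all tested genes called higher and 14.4% called lower by edgeR, and with 5 to 13 tested genes a list they are read as descriptions.

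A gene that acts on the inhibitor of CPT1 rose. Mlycd, whose product malonyl-CoA decarboxylase breaks malonyl-CoA down, stood at 20.6, 20.6 and 22.6 CPM in knockout cells and 10.1, 9.28 and 11.3 CPM in wild type. It rose by 1.06 on the log2 scale (SE 0.14, edgeR adjusted p = 3.74e-07) and was called in all 15 alternative settings. Mlycd lies on chromosome 8, whose genes had a median log2 fold change of 0.17, and 7 of the 14 genes tested within 1 Mb of it were called higher, with a window median of 0.25.

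Of the 9 tested genes of malonyl-CoA metabolism and AMP-activated kinase, 2 rose and 0 fell, 22.2% called beside 26.5% of all tested genes. The other was Prkag1, a regulatory subunit of the kinase (0.28, edgeR adjusted p = 0.00335). The acetyl-CoA carboxylase genes, whose products make malonyl-CoA, did not pass, with Acaca (-0.12, edgeR adjusted p = 0.235) and Acacb (0.20, adjusted p = 0.160). None of the 5 tested genes of carnitine supply and exchange was called by edgeR, DESeq2 or limma on TPM, and 1, Crot, had an unadjusted p below 0.05. Among them Slc25a20, the exchanger that carries acylcarnitine inward between CPT1 and CPT2, had a log2 fold change of 0.04 (edgeR adjusted p = 0.809).

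Among 10 tested genes of fatty acid uptake and activation, 2 rose and 2 fell. The transporter gene Slc27a1 rose by 0.39 (edgeR adjusted p = 0.00258), and Acsl3, an acyl-CoA synthetase gene, by 0.25 (adjusted p = 0.0168). The fatty acid binding protein genes Fabp5 (-0.61, edgeR adjusted p = 0.000238) and Fabp3 (-0.18, adjusted p = 0.00208) fell. Slc27a1 also lies on chromosome 8, where 16 of 63 genes within 1 Mb were called higher and 3 lower. Acsl3 was not called by DESeq2 (adjusted p = 0.131, spanning 0.0157 to 0.131 over its settings), nor by edgeR with knockout replicate 3 (0.0528) or wild-type replicate 1 (0.0566) removed. Fabp3 was not called on log2(TPM + 1) (limma adjusted p = 0.438, spanning 0.00153 to 0.438).

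Among 9 other dehydrogenase and electron-transfer genes 1 rose and 1 fell. Acad10 rose by 0.68 (edgeR adjusted p = 0.00113), from 9.61 ± 0.327 CPM in wild type to 15.3 ± 2.19 CPM (SD, n = 3). Etfb, a subunit of the flavoprotein that accepts electrons from the dehydrogenases, fell by 0.38 (edgeR adjusted p = 1.18e-06), from 158 ± 5.27 to 122 ± 8.45 CPM. Its partner subunit Etfa had a log2 fold change of 0.13 (edgeR adjusted p = 0.179). Both calls were kept in all 15 settings.

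Among 8 other mitochondrial enzymes 1 rose and 2 fell. The auxiliary reductase gene Decr1 rose by 0.40 (edgeR adjusted p = 0.0162). The thiolase gene Acaa2 (-0.29, edgeR adjusted p = 0.0149) and the isomerase gene Ech1 (-0.20, adjusted p = 0.0295) fell. DESeq2 called none of these 3 (adjusted p = 0.0896 to 0.142), and over all settings their adjusted p ran from 0.00987 to 0.585. With edgeR, Decr1 lost its call when knockout replicate 1, knockout replicate 2 or wild-type replicate 2 was removed (adjusted p = 0.0515 to 0.112), Acaa2 on removal of knockout replicate 2, knockout replicate 3 or wild-type replicate 2 (0.0503 to 0.0930), and Ech1 without any of these 3 or wild-type replicate 3 (0.0761 to 0.130). The genes of this list with the highest mean TPM among those not called were Hsd17b10 at -0.14 (edgeR adjusted p = 0.0518, and 0.0414 without knockout replicate 2), Hadh at 0.08 (adjusted p = 0.269), Echs1 at -0.10 (adjusted p = 0.166) and Eci1 at 0.10 (adjusted p = 0.391).

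Peroxisomes shorten very long and branched chains. Of 13 tested peroxisomal genes 2 rose and 0 fell with edgeR, and DESeq2 and limma on log2(TPM + 1) each called 1 rise and 0 falls. Hsd17b4, the bifunctional enzyme gene, rose by 0.35 (edgeR adjusted p = 0.00207) and Phyh, which starts the oxidation of phytanic acid, by 0.23 (adjusted p = 0.0167). Without knockout replicate 1 neither was called (edgeR adjusted p = 0.0518 and 0.0922, spanning 0.000174 to 0.0764 and 0.0151 to 0.12 over their settings), and Phyh was also not called without wild-type replicate 2 (0.110). Scp2, the peroxisomal gene of the list with the highest mean TPM, had a log2 fold change of -0.18 (edgeR adjusted p = 0.0859), and it was called lower without wild-type replicate 1 (-0.24, adjusted p = 0.0323).

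Peroxisome proliferator-activated receptors are nuclear receptors that bind fatty acids and are known to induce Cpt1b and other genes of the pathway in muscle and liver. Ppara, Pparg and the coactivator gene Ppargc1a were outside the count filter, with at most 1 count in any library. Of the 6 tested regulators 0 were called by edgeR, DESeq2 or limma on TPM, and 0 had an unadjusted p below 0.05, with Ppard at -0.01 and Esrra at 0.07 on the log2 scale.

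Of 5 tested target genes outside beta-oxidation 2 rose and 0 fell with edgeR, which called 26.5% of all tested genes. DESeq2 called 0, and limma on log2(TPM + 1) called 2 higher and 0 lower. Plin2, which coats lipid droplets, rose by 0.30 (edgeR adjusted p = 0.0128, but 0.0562 without knockout replicate 1 and 0.141 without wild-type replicate 1). Acot2, a mitochondrial thioesterase gene, rose by 1.36 (SE 0.43, adjusted p = 0.0162) from 1.02 to 2.65 CPM, and it was not called without knockout replicate 3 (0.0843) or wild-type replicate 2 (0.0797). The value of Acot2 is uncertain, because reads can be split with its near-identical copy Acot1, which had a log2 fold change of -0.35 (edgeR adjusted p = 0.107). Pdk4 and Angptl4, known targets of these receptors, had 0.65 (edgeR adjusted p = 0.106) and -0.08 (adjusted p = 0.670).

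**Figure D4:**
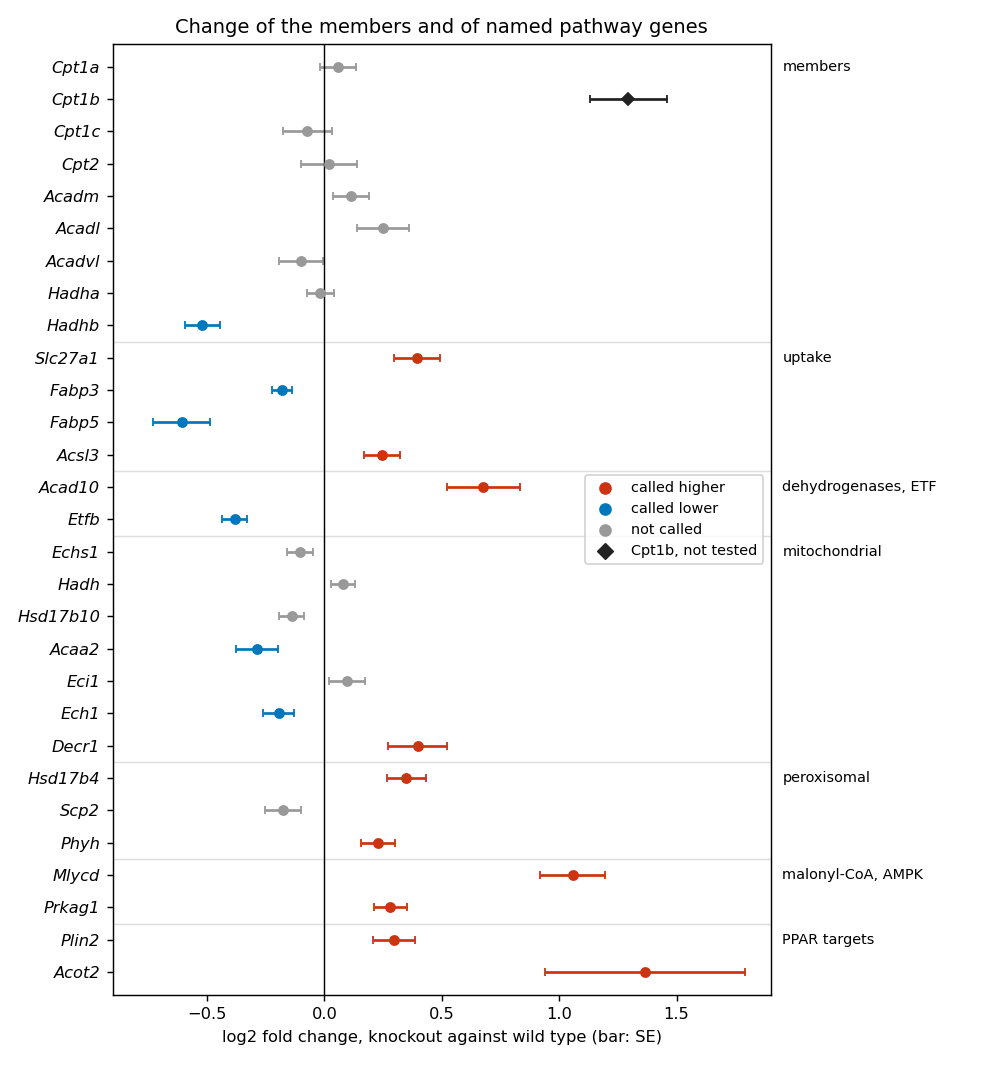
Log2 fold change, knockout against wild type, of the 9 genes and the named pathway genes, with bars of 1 SE. Red and blue mark genes called higher or lower by edgeR, grey those not called, and the black diamond Cpt1b, which was not tested; apart from Cpt1b, values above 1 are those of Mlycd and Acot2.

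The start regions of the members were searched for the site of these receptors. RefSeq windows of 300 bases (250 before and 50 after the start, GRCm38.p6) were matched for 8 of the 9 members, all except Cpt1b. The receptor half-site AGGTCA, searched on both strands, occurred in 4 of the 8 windows, those of Cpt1a, Cpt1c, Acadm and Acadvl, beside 16.3% of 32817 windows of all genes. The full site, in which that half-site is repeated after 1 spacer base, occurred in 0 of the 8 windows and in 0.0396% of all windows. The extended half-site TCAAGGTCA, which contains the half-site and binds estrogen-related receptors, was in 0 of 8 and in 0.424%.

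The 30 bases around each half-site are given because they are the matches of this search. They read 5′ to 3′ in the direction of the gene, with the half-site or its reverse complement in capitals.
Cpt1a, chr19:3323195-3323224, plus strand: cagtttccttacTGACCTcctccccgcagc
Cpt1c, chr7:44974980-44975009, minus strand: gggcagggagggAGGTCAaggctgtttctt
Acadm, chr3:153944864-153944893, minus strand: gTGACCTtcgggctccggtgacactgggca
Acadvl, chr11:70015498-70015527, minus strand: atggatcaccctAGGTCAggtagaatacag
None of these 4 genes passed edgeR's test on counts, and Hadhb, which did, had no such match in its window. With the transcript length offset this turned round, with Acadvl called (-0.38, edgeR adjusted p = 0.0351) and Hadhb not (-0.17, adjusted p = 0.262). The CCAAT box, the letters CCAAT on either strand, was in 2 of the 8 windows, those of Cpt1a and Cpt1c, beside 37.4% of all windows. A match of letters is a description and not a bound site.

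The genes around Cpt1b were read in the same fit. Within 50 kb, 11 other genes are annotated, of which 6 were tested. Chkb, a choline kinase gene, lies 496 bases upstream of Cpt1b on the same strand. It stood at 59.5, 59.9 and 54.8 CPM in knockout cells and 41.9, 43.6 and 40.7 CPM in wild type, so that every knockout library was higher. Chkb rose by 0.46 on the log2 scale (SE 0.08, edgeR adjusted p = 2.40e-05), less than the 1.29 of Cpt1b, and it was called in all 15 alternative settings.

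C730034F03Rik overlaps the start of Chkb on the other strand. It stood at 1.12, 3.59 and 4.0 CPM in knockout cells and 5.59, 5.86 and 4.98 CPM in wild type, and fell by 0.92 on the log2 scale (SE 0.32, edgeR adjusted p = 0.0321). Its call was lost in 8 settings, among them DESeq2 (adjusted p = 0.0995) and the fit without knockout replicate 1 (-0.52, edgeR adjusted p = 0.210) or any 1 wild-type library (0.0592 to 0.108), spanning 0.0147 to 0.210 over its settings. The other 4, Ncaph2 (0.06), Mapk8ip2 (0.12), Arsa (0.27) and Tymp (0.42), did not pass (edgeR adjusted p = 0.112 to 0.639). Within 1 Mb of Cpt1b, 2 of 27 tested genes were called higher and 2 lower, with a window median of 0.21. Chromosome 15 as a whole had a median of 0.02. The part of this window in the difference of Cpt1b was not tested.

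**Figure D5:**
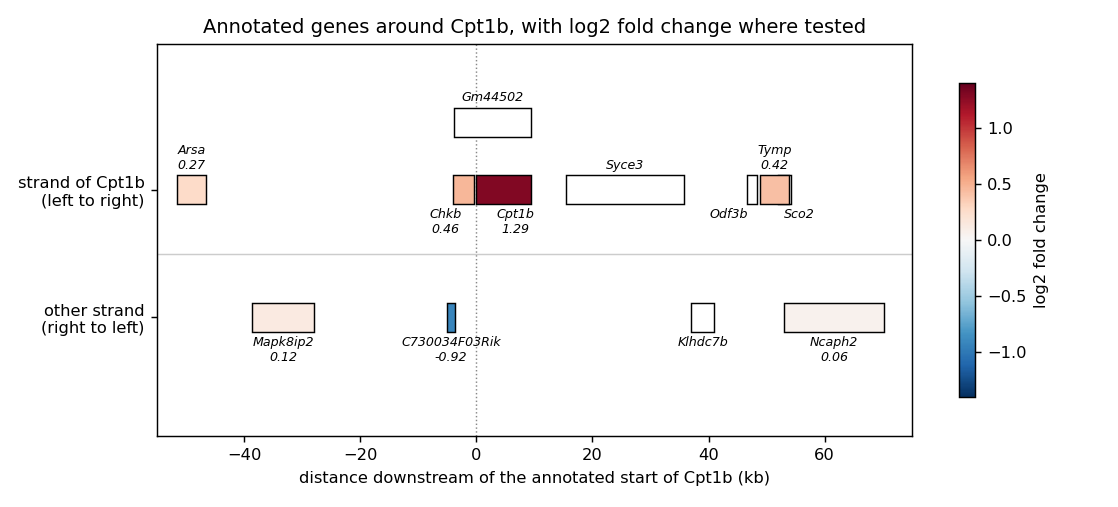
Annotated genes around Cpt1b by distance from its start (kb, positive downstream), on the strand of Cpt1b (top) and the other strand (bottom), coloured by log2 fold change; white genes were outside the count filter. Chkb (0.46) lies 496 bases upstream of Cpt1b (1.29) on the same strand, and the read-through model Gm44502 above them had 0 counts.

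The genes whose normalised log2 counts followed those of Cpt1b most closely over the 6 libraries were Fn3krp (Pearson r 0.996), Tmem131 (0.996), Plekha5 (0.995), Zmym3 (0.995) and Zbtb5 (0.993). Among the members and pathway genes the highest were Acad10 (0.922), Acsl3 (0.921) and Prkag1 (0.902). The points are 6 libraries in 2 groups, so r includes the difference between the groups, and 727 tested genes (5.64%) had r above 0.9. Among the members, r to Cpt1b ran from -0.88 for Hadhb to 0.74 for Acadl.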

How the data were processed

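Polyadenylated RNA of 3 Hoxd12-/- and 3 wild-type libraries was compared, grouped by the sample titles. The deposited tables give each gene an expected count, which is an estimated count that need not be whole and is not scaled for depth, per the file headers. They also give TPM and FPKM, both of which, per the file headers, the authors scaled for gene length and depth; FPKM was not used. The submitters' processing notes list Bowtie 0.12.2, mm8 and mm10 and assign them to no step. The quantifier, and whether counting used strand, were not given in the sources used here. Symbols and coordinates are from GENCODE M21 (GRCm38), in which all identifiers matched.

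Expected counts were rounded and fitted in R 4.3.3 with edgeR 4.0.16 (TMM scaling, filterByExpr, robust quasi-likelihood test, group as the only term). P-values were adjusted by Benjamini-Hochberg over 12891 genes and called below 0.05. CPM values use TMM-scaled library sizes, and intervals are at 95%. The common biological coefficient of variation was 6.74%. The fit was tested on simulated data. The depth of a library, at 3 counts, limits levels to 0.478 to 0.554 CPM. Alternatives were other scalings (RLE, and TMM from genes outside chromosomes 6, 8 and 11), DESeq2 1.42.0, other count filters, a replicate block, a transcript length offset, limma 3.58.1 with log2(TPM + 1) or log2(TPM + 0.1) as input, and each library left out.

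The members and gene lists were chosen with earlier results of these data known. The genes named are the members, all called pathway genes and the 5 uncalled ones with the highest mean TPM. To these were added the tested genes within 50 kb of Cpt1b, the 5 tested genes most correlated with it and the 3 most correlated member or pathway genes. Crot, Slc25a20, Acaca, Acacb, Etfa, Acot1, Pdk4, Angptl4, Ppard and Esrra were named after their values were seen, as were the genes named for overlap or as markers.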

Additional observations from a re-analysis of the deposited data

How the results depend on the processing

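Direction and side of the threshold were compared over 15 alternative settings for 34 named genes. In 13 genes both stayed the same in every setting: Acadm, Slc27a1, Fabp5, Acad10, Etfb, Mlycd, Prkag1, Hadh, Eci1, Tymp, Chkb, Mapk8ip2 and Arsa. Over all comparisons 439 were the same, 49 lost the call, 6 gained one and 16 changed sign.

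The count of all genes called higher was 701 with DESeq2, and of those called lower 749 on log2(TPM + 1) and 738 on log2(TPM + 0.1). Among the members apart from Cpt1b, both TPM fits called 1 higher (Acadl) and 0 lower. With the transcript length offset the 1 member called lower was Acadvl and not Hadhb. Of the pathway genes, DESeq2 called 5 higher and 3 lower, the length offset 3 lower and both TPM fits 2 lower. Leaving out 1 library gave 6 to 10 higher, 6 without knockout replicate 1, and 3 to 6 lower, 3 with knockout replicate 3 or wild-type replicate 2 removed.

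Sign changes concerned genes close to 0. With the length offset Cpt1c was at 0.085, Cpt2 at -0.030, Echs1 at 0.040 and Ncaph2 at -0.018. On log2(TPM + 1) and log2(TPM + 0.1) Cpt1c was at 0.18 and 0.19, and Echs1 at 0.14 on both. With 1 library left out, Cpt1a ran from -0.0105 (wild-type replicate 3 removed) to 0.11. Cpt1c ran from -0.12 to 0.020, the latter with knockout replicate 1 removed. Cpt2 ran from -0.078 (knockout replicate 1 removed) to 0.17 (knockout replicate 3 removed) and was below 0 for 4 of the 6 removals. Hadha ran from -0.043 to 0.011 (knockout replicate 1 removed). The median of all tested genes was 0.10 on log2(TPM + 1) and 0.11 on log2(TPM + 0.1). The causes were not tested.

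Deviations from the group means correlated at 0.00359, 0.0413 and 0.0244 between libraries with the same replicate number. Between libraries with different numbers they correlated at -0.0608 to 0.0422. The labels name no pair or batch, and correlations this small do not settle whether equal numbers share one. With a replicate block 1513 genes were higher and 1840 lower, and the counts of members (0 and 1) and pathway genes (10 and 5) did not move. At this depth Cpt1b had 94 to 157 counts in the knockout libraries and 35 to 61 in the wild-type libraries.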
